A study of Rattus norvegicus with 94 samples.

Results

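Transcripts of enzymes that build cholesterol were followed in the livers of male SD rats given a single dose of 1 of 3 compounds. The enzymes were 9 genes, Hmgcs1, Mvd, Idi1, Fdft1, Sqle, Cyp51, Msmo1, Nsdhl and Dhcr7, and every probe set whose symbol in the platform annotation was 1 of them was taken, a match that used no measured value, although the genes themselves were chosen with earlier results of these data known. It gave 18 of the 8799 probe sets on the array, for 8 of the 9 genes. No probe set carried the symbol Hmgcs1, so that gene was not analysed here. Cyp51 had 5 probe sets, Fdft1 had 4, Idi1, Msmo1 and Dhcr7 had 2 each, and Mvd, Sqle and Nsdhl had 1 each.

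The fibrate drug clofibrate, which lowers blood lipids, was dosed at 1000 mg/kg in 0.9% saline. Sodium valproate (VPA), an anticonvulsant fatty acid, was given at 2000 mg/kg in distilled water, and the plasticizer DEHP, or di(2-ethylhexyl) phthalate, at 20 g/kg in distilled water. Livers were taken 4, 24, 48 or 168 h after dosing, and animals given the vehicle alone were killed at 48 and 168 h, with separate vehicle groups for each compound. The 76 arrays of 1 animal each formed 18 groups, with 3 animals in each treated group at 4 and 24 h, 4 in those given VPA at 48 and 168 h, and 5 in every other group. The 48 and 168 h groups were set against vehicle animals of their own time. The 4 and 24 h groups were set against the mean of the compound's 48 and 168 h vehicle animals, 10 arrays that were not killed at those times, so that time after dosing and treatment cannot be told apart there. Comparisons within a compound therefore share vehicle arrays. The labels give no ages, no time of day and no litter, and p-values measure only the spread between these samples.

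Cholesterol is made from acetyl-CoA by way of mevalonate, isoprenoid diphosphates, squalene and lanosterol, and the liver is a major site of its synthesis. The genes of the pathway are known to be controlled together by the transcription factor SREBP-2, which is released from the endoplasmic reticulum when sterols there run low and is held back by INSIG proteins when they are plentiful. Mvd and Idi1 act on the isoprenoid diphosphates, Fdft1 joins them into squalene, Sqle oxidises squalene, Cyp51, Msmo1 and Nsdhl strip methyl groups from lanosterol, and Dhcr7 carries out a last reduction to cholesterol.

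The array signals were deposited on a linear scale that the authors had set to a target of 1500 on each array. The median signal lay between 212 and 415, and 33.2 to 45.9% of probe sets on an individual array reached a signal of 500. The log2 ratio of 3' to 5' control signal, a measure of RNA length, was 1.38 ± 0.65 (SD, n = 26) on arrays of the clofibrate set, 0.33 ± 0.14 (n = 26) on those of the DEHP set and 0.34 ± 0.14 (n = 24) on those of the VPA set. The 4 clofibrate-set arrays deposited to 1 decimal, which were 24 h treated replicate 3, 48 h treated replicate 5 and 48 h vehicle replicates 4 and 5, had ratios of 2.40 to 2.74. The 18 probe sets for hepatocyte markers summed to signals of 653094 to 910674 in the 48 h vehicle group of the clofibrate set, where 3 had a group mean under 500. The 4 probe sets for cholangiocyte markers all had a group mean under 500 there. Whole liver was measured, so that fewer cells of a type and less RNA per cell cannot be told apart.

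Of the 18 probe sets, those whose mean signal reached 500 in any group of a compound's set were tested. These were 16 in the clofibrate set, 17 in the DEHP set and 17 in the VPA set. The Idi1 probe set rc_AI045395_at had signals of at most 200.1 and was not tested in any set, and Fdft1 rc_H33426_g_at was not tested in the clofibrate set. Signals under 150 were set to 150, log2 was taken, and limma was fitted over all tested probe sets of a compound (3616 for clofibrate, 4092 for DEHP and 4269 for VPA). A difference is given as treated minus vehicle on the log2 scale with its SE, and a probe set is said to fall or rise where its Benjamini-Hochberg adjusted p over all tested probe sets was under 0.05.

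In livers of vehicle animals the transcripts varied from animal to animal, with a median spread above that of all probe sets. The SD of log2 signal within vehicle groups had a median of 0.45 over the members in the clofibrate set, against 0.38 over all 3616 probe sets. It was 0.34 against 0.24 in the DEHP set and 0.31 against 0.26 in the VPA set. The widest spread was that of Idi1 AF003835_at in the DEHP set, at 0.63, and in the VPA set, at 0.56, and that of Msmo1 E12625cds_at in the clofibrate set, at 1.09. Nsdhl was the least variable member in the clofibrate set (0.17) and the VPA set (0.19).

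Single vehicle animals were low or high for many members at once. In the 48 h vehicle group of the DEHP set, replicate 1 gave the lowest signal of the 5 animals for 13 of 17 probe sets and replicate 3 the highest for 13 of 17. For Idi1 AF003835_at the 5 signals were 797, 2010.0, 2339.8, 1909.8 and 820.4, and for Msmo1 rc_AI172293_at they were 3292, 5650.2, 6369, 6131 and 4086. In the 48 h vehicle group of the clofibrate set, replicate 1 was lowest for 10 of 16 probe sets. The member probe sets come from 8 genes. The share of all probe sets for which these arrays were lowest or highest was not counted, so that a shift of the whole array cannot be told apart. No member was called between vehicle animals of 48 and 168 h in any set, where 0% of all probe sets were called too. At an unadjusted p under 0.05 that comparison held 0 of 16 members in the clofibrate set, 1 of 17 in the DEHP set and 1 of 17 in the VPA set, and 114, 179 and 186 of all probe sets. The 48 h animals were lower for 7, 12 and 13 members in these sets. Log2 differences (48 h minus 168 h) ran from -0.69 to 0.41, -0.39 to 0.22 and -0.70 to 0.16. A missed threshold does not show that the 2 vehicle groups were alike.

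**Figure D1:**
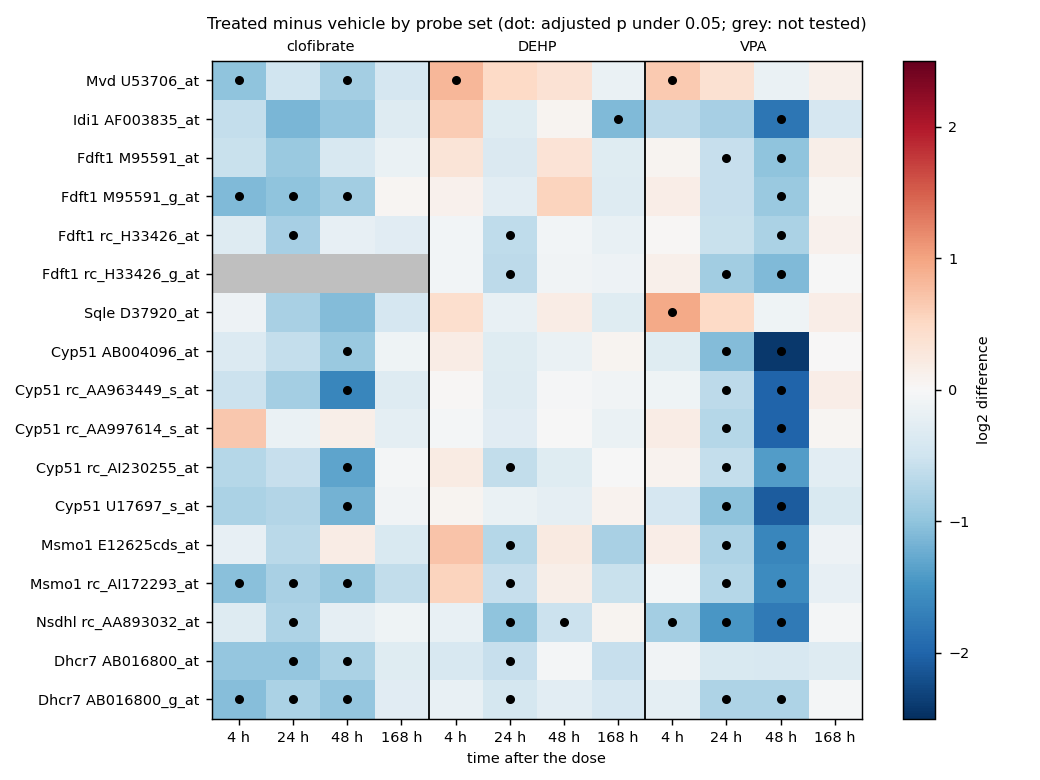
Log2 difference from vehicle (treated minus vehicle) of each tested cholesterol synthesis probe set at 4, 24, 48 and 168 h in the clofibrate, DEHP and VPA sets, with marked cells at an adjusted p under 0.05. The 48 h VPA column holds 14 marked probe sets, all lower, and the 168 h columns of clofibrate and VPA hold none.

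VPA lowered most of the pathway's transcripts 48 h after the dose. Of the 17 tested probe sets 14 fell and none rose, from 6 of the 8 genes, where 18.4% of all probe sets fell and 21.3% rose. The median difference over the 17 was -1.39, against -0.01 over all 4269 probe sets. In 13 of the 17 every treated animal lay below every vehicle animal, which held for 14.4% of all tested probe sets. The genes that fell run from Idi1 and Fdft1 to Cyp51, Msmo1, Nsdhl and Dhcr7, whereas Mvd and Sqle did not pass the test.

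Cyp51, the demethylase of lanosterol, fell furthest. On AB004096_at the 4 treated animals gave signals of 340.3, 364, 283 and 479 and the 5 vehicle animals 1871, 2402, 1771, 2178 and 1499. All treated animals lay below all vehicle animals, and the log2 difference was -2.41 ± 0.21 (SE, adjusted p = 4.31e-09), or 5.33-fold lower. On U17697_s_at the treated animals gave 1647, 1411, 1586 and 899 and the vehicle animals 5866, 10299, 4592, 5987 and 3603, again without overlap. Its log2 difference was -2.08 ± 0.24 (SE, adjusted p = 2.46e-07). The other 3 probe sets agreed in direction, at -2.01 for rc_AA963449_s_at, -2.0 for rc_AA997614_s_at and at least 1.39 lower for rc_AI230255_at, where 1 treated animal, replicate 4, lay at the floor.

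Nsdhl, the sterol dehydrogenase that works with Msmo1 in removing methyl groups, gave 2113, 1389.8, 1842 and 1579 in treated and 5438, 6922, 5455, 5277 and 6309.9 in vehicle animals. The highest treated signal was well under the lowest vehicle signal, and the log2 difference was -1.77 ± 0.17 (SE, adjusted p = 1.78e-08). Msmo1, the methylsterol oxygenase, fell on both of its probe sets. On rc_AI172293_at the signals were 1628, 1888, 2086 and 1128 in treated and 4370.4, 7439, 5540.2, 4875 and 3123 in vehicle animals, with no overlap and a log2 difference of -1.57 ± 0.24 (SE, adjusted p = 1.22e-05). On E12625cds_at the log2 difference was -1.64 ± 0.25 (SE, adjusted p = 1.74e-05).

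Idi1, the isomerase that supplies the starter unit of isoprenoid chains, gave 559, 572, 479 and 351 in treated and 1789, 3116, 1717, 1685 and 834 in vehicle animals on AF003835_at. The vehicle animals were far apart from each other, yet all lay above the treated animals, and the log2 difference was -1.80 ± 0.37 (SE, adjusted p = 4.58e-04). Fdft1, the squalene synthase that commits carbon to sterols, fell on all 4 probe sets by 0.80 to 1.10 on the log2 scale. On M95591_at the treated animals gave 1253, 2272, 1478 and 1871 and the vehicle animals 4414, 3626, 2821, 3702 and 2514, a log2 difference of -1.0 ± 0.19 (SE, adjusted p = 2.19e-04). Fdft1 M95591_g_at was the called probe set whose animals overlapped, at 725 to 1447 against 1343 to 2730.3.

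Dhcr7, which makes cholesterol from its dehydro precursor, fell on AB016800_g_at, where treated animals gave 3458, 4749.8, 2301 and 3979 and vehicle animals 6001, 6815, 5611, 5887 and 5660.4. The log2 difference there was -0.77 ± 0.20 (SE, adjusted p = 0.00298). On its second probe set, AB016800_at, the difference was -0.40 ± 0.20 (SE, adjusted p = 0.126) and did not pass the test. Mvd, the decarboxylase of mevalonate diphosphate, gave 608, 959.6, 568 and 639 in treated and 724, 796, 747, 749.8 and 781 in vehicle animals. Sqle, the squalene epoxidase, gave 1004, 1231, 1049 and 1139 and 986, 1730.2, 1395, 1194 and 836. For both genes the groups overlapped, with log2 differences of -0.16 ± 0.20 (SE, adjusted p = 0.558) and -0.11 ± 0.23 (SE, adjusted p = 0.74).

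The 14 calls were kept when any 1 of the 9 arrays was left out. Within scan days, the median member difference was -1.14 on the day with 3 treated and 3 vehicle arrays and -1.40 on the day with 1 of each. Markers of other cells moved at the same time. Erythroid markers summed to 9423 to 18614 in treated and 33124 to 67869.6 in vehicle animals over 3 probe sets, and stellate cell markers to 10238 to 12428 and 18262 to 24168 over 21, of which 12 and 8 had a group mean under 500. Hepatocyte markers summed to 314308 to 418910.0 and 463813 to 569962 over 18 probe sets, and 9 of the 15 tested fell. The part of these shifts in the result was not tested.

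**Figure D2:**
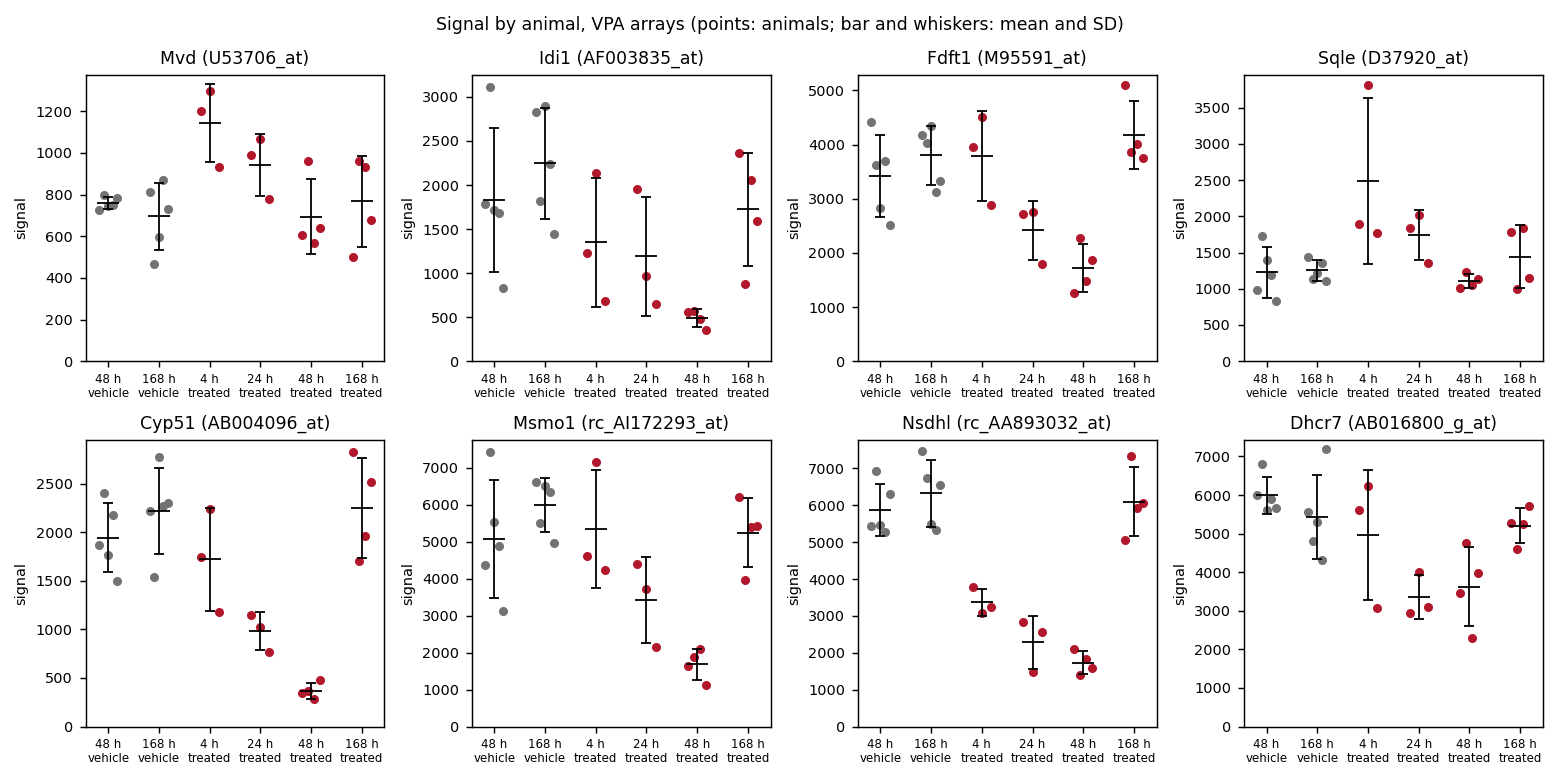
Signal (linear scale from 0) of 1 probe set per gene in each animal of the VPA set by group, with points for animals and bars for the mean ± SD. The 48 h treated animals lie below the 48 h vehicle animals for Idi1, Fdft1, Cyp51, Msmo1, Nsdhl and Dhcr7, and overlap them for Mvd and Sqle.

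Promoter sequences are shown for 4 enzymes of the pathway, 3 whose transcripts fell together at 48 h and Mvd, which did not, so that the stretches before their starts can be set side by side. They are the 250 bases before the start of each gene in the RefSeq annotation of GRCr8, written in the direction of the gene, and the table used here held promoters for 7 of the 9 genes. They lie at chr4:30991443-30991692 on the plus strand for Cyp51, chr16:29746863-29747112 on the plus strand for Msmo1, chrX:155817110-155817359 on the plus strand for Nsdhl and chr19:67414975-67415224 on the minus strand for Mvd. Capitals mark matches, on either strand, to TCACNCCAC (a sterol regulatory element), CCAAT (the box bound by NF-Y) and GGGCGG (a GC box). These motifs were chosen after matches had been seen.
Cyp51: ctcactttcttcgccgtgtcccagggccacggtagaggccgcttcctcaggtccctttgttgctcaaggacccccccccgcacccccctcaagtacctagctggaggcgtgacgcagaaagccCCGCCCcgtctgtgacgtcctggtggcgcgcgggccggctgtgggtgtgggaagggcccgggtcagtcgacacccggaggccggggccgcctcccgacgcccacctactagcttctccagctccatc
Msmo1: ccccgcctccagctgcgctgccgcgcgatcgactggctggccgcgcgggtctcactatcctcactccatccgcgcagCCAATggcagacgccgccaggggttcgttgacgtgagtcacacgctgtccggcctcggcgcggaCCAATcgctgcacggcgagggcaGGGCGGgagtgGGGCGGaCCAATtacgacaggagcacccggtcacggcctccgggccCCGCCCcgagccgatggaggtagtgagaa
Nsdhl: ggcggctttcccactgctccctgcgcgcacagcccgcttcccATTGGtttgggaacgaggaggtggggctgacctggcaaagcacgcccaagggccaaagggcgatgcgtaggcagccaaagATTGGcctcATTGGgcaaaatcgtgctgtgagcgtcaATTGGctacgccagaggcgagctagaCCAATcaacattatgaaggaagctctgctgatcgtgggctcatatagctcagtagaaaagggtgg
Mvd: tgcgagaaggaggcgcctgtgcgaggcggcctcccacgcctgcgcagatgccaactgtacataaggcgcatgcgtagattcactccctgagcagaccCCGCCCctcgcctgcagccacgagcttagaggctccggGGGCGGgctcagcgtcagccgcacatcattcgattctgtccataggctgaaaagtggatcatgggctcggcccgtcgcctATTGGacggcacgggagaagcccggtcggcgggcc

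CCAAT matched 5 times in the Nsdhl promoter, 3 times in that of Msmo1 and 1 time in that of Mvd. It was found in 5 of the 7 promoters of listed genes and in 34.0% of all 33469 promoters of the same length. GGGCGG matched 3 times for Msmo1, 2 times for Mvd and 1 time for Cyp51, in 5 of the 7 promoters and 30.5% of all. TCACNCCAC was in none of the 7 windows and in 0.974% of all. A match is a description of letters and not of a binding site. Where matches overlapped, each was counted.

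At 24 h after VPA, 11 of 17 probe sets fell and none rose, where 15.6% of all probe sets fell and 20.9% rose. Treated animals all lay below vehicle in 5 of 17, against 9.77% of all probe sets. The median difference was -0.71, against 0.02 over all probe sets. Nsdhl signals were 2823, 1475 and 2575 in the 3 treated animals, and the lowest, median and highest of the 10 vehicle animals were 5277, 5903 and 7471. Treated and vehicle animals did not overlap, and the log2 difference was -1.46 ± 0.17 (SE, adjusted p = 5.24e-07). Cyp51 AB004096_at gave 1151, 1028 and 772, below vehicle values of 1499, 2199 and 2778 (lowest, median and highest), with a log2 difference of -1.08 ± 0.20 (SE, adjusted p = 2.53e-04).

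All 5 Cyp51 probe sets and both Msmo1 probe sets were among those that fell at 24 h, with 2 of the 4 for Fdft1 and 1 of the 2 for Dhcr7. Msmo1 rc_AI172293_at gave 4391, 3721 and 2142 against 3123, 5516 and 7439 in vehicle animals, an overlap, with a log2 difference of -0.72 ± 0.23 (SE, adjusted p = 0.0182). Idi1 AF003835_at had a log2 difference of -0.83 ± 0.37 (SE, adjusted p = 0.0787), which did not pass the test. Mvd and Sqle lay in the other direction, at 0.38 ± 0.20 (SE, adjusted p = 0.135) and 0.49 ± 0.23 (SE, adjusted p = 0.0893), and did not pass it either. The count of 11 was 5 without treated replicate 3, whose median member difference of -1.11 was the lowest of the 3 animals (-0.29 and -0.58 in the others). It was 3 with scan day as a block, 6 against the 48 h vehicle group alone and 6 in the fit of all 76 arrays. With the 3' to 5' ratio as a covariate 6 were lower and 1 higher. Within scan days, the median member difference was -0.63 on the day with 1 treated and 5 vehicle arrays and -0.16 on the day with 1 and 2. Treated replicate 3 was scanned on a day without vehicle arrays of the set.

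Markers of hepatocytes, stellate cells and erythroid cells had lower mean sums at 24 h too. Hepatocyte markers summed to 334566 to 394125 in treated animals, against 463813 to 569962 and 483595 to 672880.0 in the 48 h and 168 h vehicle groups, without overlap. Of the 15 tested probe sets 10 fell, with a median log2 difference of -0.64. Stellate cell markers summed to 12470.5 to 16007, against 18262 to 24168 and 15801 to 29039, and 5 of 13 fell. All 3 erythroid probe sets fell. The part of these shifts in the result was not tested.

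At 4 h after VPA few members were called, in both directions, at shares near those of all probe sets. Sqle and Mvd rose and Nsdhl fell, so that 2 of 17 probe sets rose and 1 fell, where 14.4% of all probe sets rose and 6.79% fell. Sqle gave 1889, 3807 and 1771 in treated animals, above the vehicle range of 836, 1208 and 1730.2 (lowest, median and highest), with a log2 difference of 0.94 ± 0.23 (SE, adjusted p = 0.00492). Mvd gave 1200.2, 1297 and 932 against 467, 748 and 867, also without overlap, with a log2 difference of 0.66 ± 0.20 (SE, adjusted p = 0.0207). Nsdhl gave 3785, 3077 and 3243 against 5277, 5903 and 7471, with every treated animal lower and a log2 difference of -0.85 ± 0.17 (SE, adjusted p = 0.001).

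Nsdhl kept its call without each array in turn and under every other setting tried. The Mvd call was lost after median centring, after quantile normalization and against the 48 h vehicle group alone, and without treated replicate 1 or 2. Sqle lost its call without treated replicate 2, which left 1 lower and none higher. Of the 15 tested hepatocyte marker probe sets 3 fell, and their part in the result was not tested. The median over all 17 was 0.03, and it was -0.17 after median centring and -0.12 after quantile normalization, scalings under which the median of all probe sets, 0.08 as deposited, became -0.11 and -0.01.

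By 168 h after VPA no member was called, where 0% of all probe sets were. Over the 17 the median was -0.00, against 0.04 over all probe sets, and 0 of 17 members but 326 of all probe sets had an unadjusted p under 0.05 in limma. Cyp51 AB004096_at gave 2824, 1706, 1956 and 2513 in treated and 2221, 1540.2, 2778, 2267 and 2297 in vehicle animals, which overlapped. Nsdhl gave 5067, 7325, 5927 and 6064 and 7471, 6751, 5496, 5325 and 6561, which overlapped too. The change from 48 to 168 h was tested directly as the difference between the 2 responses, and 11 of 17 probe sets were more negative at 48 h, where 10.8% of all were. It was -2.43 ± 0.29 (SE, adjusted p = 2.35e-06) for Cyp51 AB004096_at and -1.72 ± 0.24 (SE, adjusted p = 1.15e-05) for Nsdhl.

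Clofibrate was followed by lower levels of several of the pathway's transcripts at 4, 24 and 48 h. At 48 h, 9 of 16 probe sets fell and none rose, from 5 genes (Mvd, Fdft1, Cyp51, Msmo1 and Dhcr7), where 12.7% of all probe sets fell and 7.27% rose. The median difference was -0.90, against -0.13 over all probe sets. Treated animals were as far below vehicle as to leave no overlap for 1 of 16 probe sets, Dhcr7 AB016800_g_at. That share is near the 6.55% of all probe sets that met it.

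Dhcr7 AB016800_g_at gave 2941, 3389, 3541, 3844 and 4525 in the 5 treated and 4703, 6829, 7301, 8769.6 and 8406 in the 5 vehicle animals. The groups did not overlap, and the log2 difference was -0.96 ± 0.20 (SE, adjusted p = 0.00109). Cyp51 rc_AI230255_at gave 577, 379, 703, 1001 and 763 and 925, 1487, 2187, 1840.4 and 2116, with a log2 difference of -1.33 ± 0.28 (SE, adjusted p = 0.00163). Both kept their calls without each array in turn and under every other setting tried.

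Msmo1 rc_AI172293_at gave 2156, 3954, 5451, 3960.3 and 3792 in treated and 4747, 7072, 8259, 8201 and 7992 in vehicle animals, with a log2 difference of -0.94 ± 0.26 (SE, adjusted p = 0.0121). Vehicle replicate 1 stood apart from the other 4 and lay inside the treated range. Mvd gave 651, 779.7, 977, 603 and 1595 and 1015, 1319, 1596, 2169.8 and 1944, overlapping, with a log2 difference of -0.85 ± 0.24 (SE, adjusted p = 0.0133). Nsdhl, which fell after VPA, gave 2201, 5388, 4073, 4898 and 2376 against 4552, 4817, 4144, 3366 and 3942 and did not pass the test at -0.22 ± 0.22 (SE, adjusted p = 0.518). Idi1 AF003835_at and Sqle were lower by similar sizes, at -0.97 ± 0.39 (SE, adjusted p = 0.0796) and -1.08 ± 0.42 (SE, adjusted p = 0.071), and did not pass it either.

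Probe sets of the same gene disagreed in the clofibrate set. Cyp51 rc_AA997614_s_at had a log2 difference of 0.14 ± 0.57 (SE, adjusted p = 0.884) at 48 h where the other 4 probe sets of the gene fell by 0.93 to 1.63. Its signals were 568, 1528, 2449.9, 1766 and 270.3 in treated and 1482, 725, 1083, 957 and 555 in vehicle animals, and the lowest of these, treated replicate 5, came from an array with a 3' to 5' log2 ratio of 2.40. Msmo1 E12625cds_at had a log2 difference of 0.18 ± 0.74 (SE, adjusted p = 0.884), with signals of 265, 1289, 1646, 730.3 and 43.0 and 1793, 773, 412, 97.7 and 381. Its lowest signals were those of treated replicate 5 and vehicle replicate 4, with ratios of 2.40 and 2.57. The part of the 3' to 5' ratio in these values was not tested.

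The clofibrate count at 48 h depended on which arrays and scaling were used. Dropping the 4 arrays given to 1 decimal left 3 calls, and there were 3 after median centring and 5 without a filter on low signals. It was 5 without treated replicate 1, without vehicle replicate 3 or without vehicle replicate 5. The 3' to 5' ratio was 1.26 ± 0.70 (SD, n = 5) in treated and 1.77 ± 0.80 (n = 5) in vehicle animals at 48 h. Hepatocyte markers summed to 504026 to 655439 and 653094 to 910674 over 18 probe sets, of which 7 of the 15 tested fell, and their part in the result was not tested.

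At 4 h after clofibrate Mvd, Fdft1 M95591_g_at, Msmo1 rc_AI172293_at and Dhcr7 AB016800_g_at fell, 4 of 16 probe sets, and none rose, where 0.996% of all fell and 2.43% rose. In 4 of 16 every treated animal lay below every vehicle animal, which held for 1.16% of all probe sets. The 16 had a median difference of -0.58, against -0.02 over all probe sets. Dhcr7 AB016800_g_at gave 2537, 4153 and 3568 in treated animals against 4701, 7579 and 8769.6 (lowest, median and highest of 10) in vehicle animals, with no overlap and a log2 difference of -1.06 ± 0.20 (SE, adjusted p = 0.00221). Mvd gave 726, 722 and 820.5 against 1015, 1542 and 2169.8, also with no overlap, and a log2 difference of -1.0 ± 0.25 (SE, adjusted p = 0.0184). The count was 1 without any 1 of the 3 treated arrays, and 1 against the 168 h vehicle group alone.

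At 24 h, 6 of 16 probe sets fell and none rose, where 7.74% of all fell and 5.75% rose. All treated animals were below all vehicle animals in 3 of 16, and in 4.98% of all probe sets. They belonged to Fdft1 (2), Msmo1, Nsdhl and Dhcr7 (2). The median difference was -0.80, against -0.09 over all probe sets, and all 16 differences were negative. Dhcr7 AB016800_g_at gave 3339.6, 4096 and 4729 against 4701, 7579 and 8769.6, overlapping, with a log2 difference of -0.80 ± 0.20 (SE, adjusted p = 0.00987). Nsdhl gave 3314, 3101 and 1665 against 3366, 4505 and 5452, without overlap, and a log2 difference of -0.78 ± 0.23 (SE, adjusted p = 0.0245). The count was 2 without treated replicate 1 or without treated replicate 3, 1 after median centring, and 11 with the 3' to 5' ratio as a covariate. Of the 15 tested hepatocyte marker probe sets 5 fell, with a median log2 difference of -0.62, and their part in the result was not tested.

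At 168 h no member was called, where 0% of all probe sets were, and at an unadjusted p under 0.05 in limma there was 1 member and 78 of all probe sets. Its 16 differences had a median of -0.29, against 0.01 over all probe sets. Dhcr7 AB016800_g_at gave 4989, 6318, 4707, 6020.3 and 6649 in treated and 8552, 8059, 6141, 7856 and 4701 in vehicle animals, which overlapped. The test of the 48 h response minus the 168 h response called no member, where 5.89% of all probe sets were called, so that a difference between the times was not shown. At an unadjusted p under 0.05 it held 5 members and 745 of all probe sets.

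**Figure D3:**
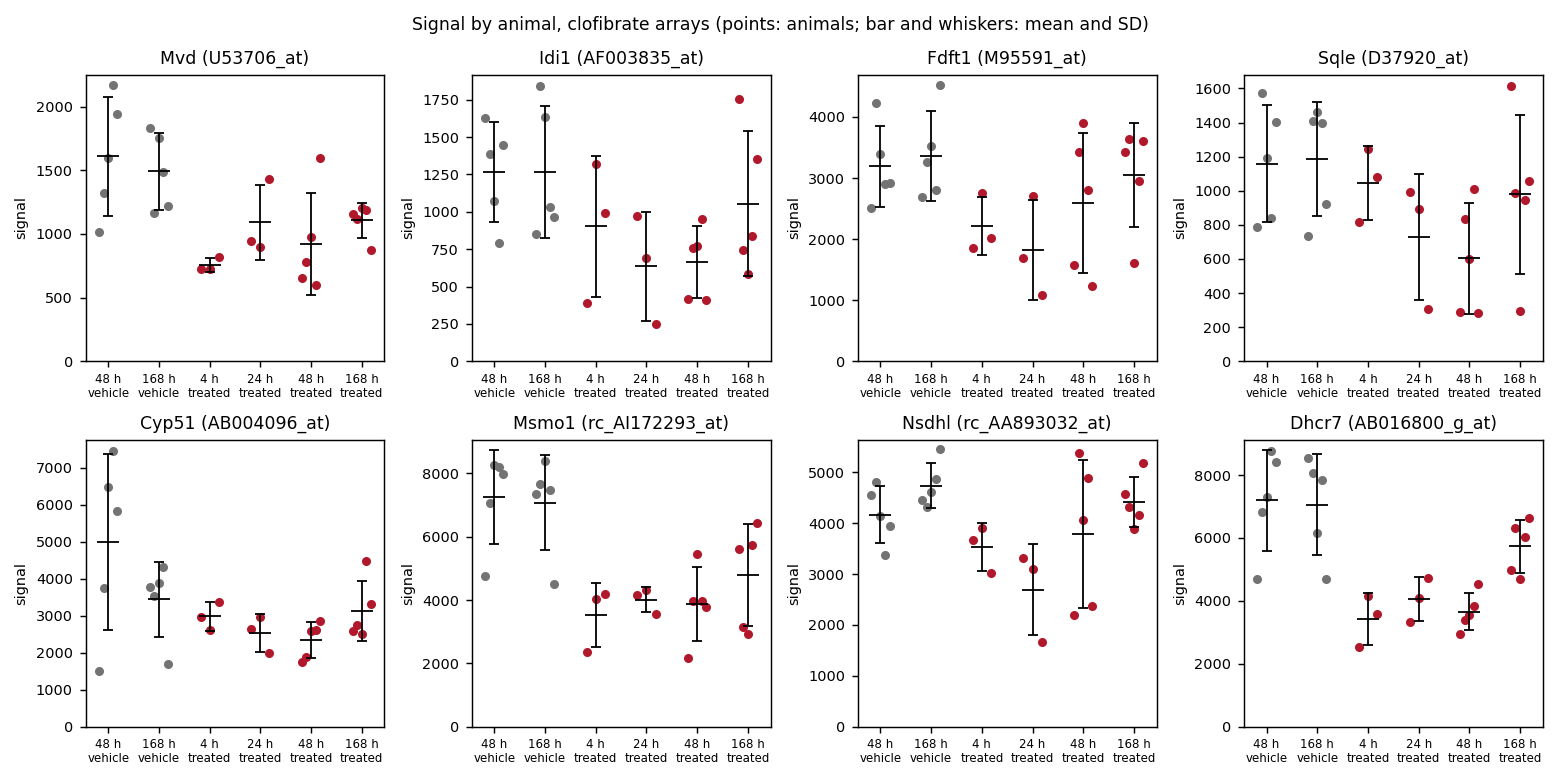
Signal (linear scale from 0) of 1 probe set per gene in each animal of the clofibrate set by group, with points for animals and bars for the mean ± SD. Groups overlap for most genes, and Dhcr7 AB016800_g_at is the member whose 48 h treated animals all lie below the 48 h vehicle animals.

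After DEHP members fell at 24 h, and 1 member each was called at the other times. At 24 h, 8 of 17 probe sets fell and none rose, where 17.5% of all fell and 15.1% rose, with a median difference of -0.36 against -0.06 over all probe sets. In 2 of 17, Fdft1 rc_H33426_at and Nsdhl, all treated animals lay below all vehicle animals, a share near the 10.8% of all. The probe sets belonged to Fdft1 (2), Cyp51 (1), Msmo1 (2), Nsdhl and Dhcr7 (2). Nsdhl fell furthest, with signals of 2297, 2321 and 2724 in treated animals against 3150.4, 5031 and 6219 (lowest, median and highest of 10) in vehicle animals. All treated animals were lower, and the log2 difference was -1.0 ± 0.14 (SE, adjusted p = 4.79e-06).

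Msmo1 rc_AI172293_at gave 2699.7, 4382 and 3535 against 3292, 5548 and 6560.2, with a log2 difference of -0.58 ± 0.18 (SE, adjusted p = 0.0172). Cyp51 rc_AI230255_at had a log2 difference of -0.61 ± 0.17 (SE, adjusted p = 0.00843), whereas U17697_s_at had one of -0.17 ± 0.19 (SE, adjusted p = 0.531). Without treated replicate 1 the count was 1 lower and 1 higher, without 48 h vehicle replicate 2 it was 5, and in the fit of all 76 arrays it was 1. The median member difference was -0.81 in treated replicate 1, -0.09 in replicate 2 and -0.55 in replicate 3. Within scan days it was -0.71 on the day with 2 treated and 4 vehicle arrays and -0.17 on the day with 1 and 5. Kupffer cell markers, 15 probe sets, summed to 12989 to 15271 in treated animals at 24 h, against 19032 to 31537 in the 48 h vehicle group, and 8 of the 11 tested fell. Hepatocyte markers summed to 507243 to 616288 and 614083 to 772444, and 7 of 15 fell. Their part in the result was not tested.

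At 48 h after DEHP, Nsdhl alone of the 17 probe sets fell and none rose, where 21.1% of all fell and 12.8% rose. The median difference was -0.03 against -0.11 over all probe sets, and it was 0.10 after median centring and 0.04 after quantile normalization. Nsdhl gave 3301, 2849, 3853, 3130.5 and 3257 in treated and 3150.4, 5534, 6219, 4725 and 4524 in vehicle animals, which overlapped, with a log2 difference of -0.53 ± 0.13 (SE, adjusted p = 0.00337). Cyp51 AB004096_at gave 2212, 1523, 2097, 1817 and 2280.3 and 1506, 2583, 3032, 2482 and 1750.3, overlapping throughout, with a log2 difference of -0.16 ± 0.17 (SE, adjusted p = 0.506). A second probe set fell without 48 h vehicle replicate 1 or treated replicate 5. Without 48 h vehicle replicate 3 there were 1 lower and 2 higher, and without vehicle replicate 4 or treated replicate 2 there were 1 lower and 1 higher. Nsdhl kept its call in each of these. Within scan days, the median member difference was -0.44 on the day with 2 treated and 2 vehicle arrays and 0.39 on the day with 1 and 3. Of the stellate cell marker probe sets 10 of the 13 tested fell, and of those for hepatocytes 7 of 15, and their part in the result was not tested.

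At 4 h after DEHP Mvd rose, the 1 of 17 probe sets called, where 1.54% of all rose and 1.34% fell. It gave 1361, 978 and 1275 in treated against 443, 698 and 1041 in vehicle animals, with a log2 difference of 0.83 ± 0.20 (SE, adjusted p = 0.0218). The call was lost without treated replicate 1 or without treated replicate 3. The median over the 17 was 0.11, against -0.01 over all probe sets.

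At 168 h Idi1 AF003835_at fell, the 1 of 17 called, where 1.49% of all fell and 2.13% rose. It gave 799, 895, 889.7, 894 and 593 in treated and 1332, 1674, 1190.1, 2504 and 2386 in vehicle animals, with a log2 difference of -1.11 ± 0.29 (SE, adjusted p = 0.0275). That call was lost without vehicle replicate 4 or 5 or treated replicate 1 or 5. The median over the 17 was -0.18, against -0.04. At an unadjusted p under 0.05 in limma there were 5 of 17 members and 565 of all probe sets. Every treated animal lay below every vehicle animal in 4 of 17, which were Idi1 AF003835_at, Fdft1 M95591_at, Msmo1 rc_AI172293_at and Dhcr7 AB016800_at. The share of all probe sets without overlap is not given here. The 48 h response was below the 168 h response for Nsdhl, at -0.59 ± 0.19 (SE, adjusted p = 0.0393), the 1 of 17 called where 7.97% of all were. Without a single array, 0 or 1 probe set was called lower at 48 h, and 13 of the 20 leave-outs ended the Nsdhl call. Calls in the other direction appeared without some arrays, up to 4 without 48 h vehicle replicate 3, and median centring gave 2 higher and none lower.

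**Figure D4:**
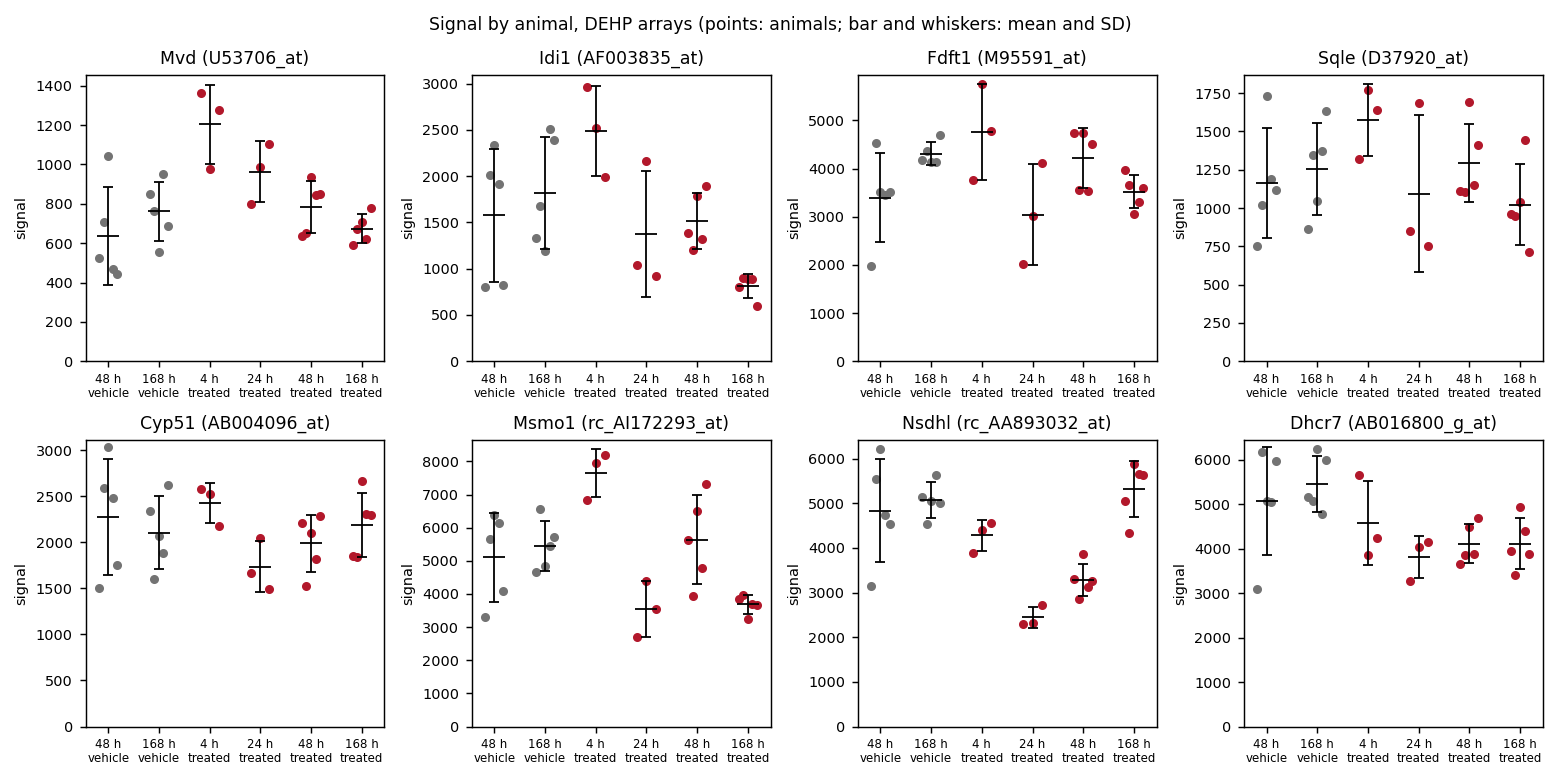
Signal (linear scale from 0) of 1 probe set per gene in each animal of the DEHP set by group, with points for animals and bars for the mean ± SD. Treated and vehicle animals overlap at 48 h for all 8 genes, and at 24 h Nsdhl lies below all vehicle animals.

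At 24 h Nsdhl, Msmo1 rc_AI172293_at and Dhcr7 AB016800_g_at fell after each of the 3 compounds. Singly, 7.74%, 17.5% and 15.6% of all tested probe sets fell after clofibrate, DEHP and VPA. The share that fell after all 3 was not counted. No vehicle animals were killed at 24 h, so that time after dosing and treatment cannot be told apart here. For Nsdhl the log2 difference was -0.78 ± 0.23 (SE) after clofibrate, -1.0 ± 0.14 after DEHP and -1.46 ± 0.17 after VPA. For Msmo1 rc_AI172293_at it was -0.81 ± 0.27, -0.58 ± 0.18 and -0.72 ± 0.23, and for Dhcr7 AB016800_g_at -0.80 ± 0.20, -0.45 ± 0.16 and -0.77 ± 0.19. Nsdhl kept its call after DEHP and VPA without each array in turn and under all 11 other settings. After clofibrate it lost the call without 1 of 13 arrays, treated replicate 3, and under 4 of the 11 settings. Msmo1 kept its call in 2 of 13 leave-outs and 4 of 11 settings after clofibrate, in 12 and 8 after DEHP and in 12 and 8 after VPA, where the adjusted p reached 0.403 with scan day as a block. Dhcr7 kept its call in 12 of 13 leave-outs and 10 of 11 settings after clofibrate, in 8 and 6 after DEHP and in 13 and 10 after VPA.

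Whether the compounds differed was tested in 1 fit of all 76 arrays, with each response taken against the compound's own vehicle animals and p-values adjusted over 4503 probe sets. There were 3 pairs at 3 times, 9 comparisons in all, and the compounds differ in dose and vehicle. No scan day was shared between arrays of different compounds. RNA quality differed as well, with 3'/5' means (log2) of 1.38 for clofibrate, 0.33 for DEHP and 0.34 for VPA. Compound therefore cannot be told apart from scan days or RNA quality in these comparisons. At 48 h the VPA response was below the DEHP response for 10 of 17 probe sets, where 2.64% of all were, from Idi1, Fdft1 (2), Cyp51 (5), Msmo1 (1) and Nsdhl. The difference was -2.25 ± 0.36 (SE, adjusted p = 1.03e-05) for Cyp51 AB004096_at and -1.87 ± 0.53 (SE, adjusted p = 0.0154) for Idi1 AF003835_at. Leaving out single arrays gave counts of 9 to 11.

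VPA was below clofibrate at 48 h for 3 of 17 probe sets, where 4.09% of all were. The difference was -1.55 ± 0.26 (SE, adjusted p = 1.39e-05) for Nsdhl, -1.48 ± 0.36 (SE, adjusted p = 0.00356) for Cyp51 AB004096_at and -2.15 ± 0.56 (SE, adjusted p = 0.00703) for Cyp51 rc_AA997614_s_at, the probe set that disagreed with the others in the clofibrate set. The count was 5, with 1 probe set above, without clofibrate 48 h treated replicate 5, and 5 with none above without clofibrate 48 h vehicle replicate 1. Clofibrate was below DEHP at 48 h for Mvd, Fdft1 M95591_g_at and Cyp51 rc_AA963449_s_at, 3 of 17 where 0.955% of all were. That count was 0 without clofibrate 48 h vehicle replicate 4, 1 without DEHP 48 h vehicle replicate 1, 5 without clofibrate 48 h treated replicate 5 and 8 without clofibrate 48 h vehicle replicate 1.

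At 4 h the Mvd response to clofibrate differed from the responses to DEHP and VPA. Mvd signals of the 10 vehicle animals had medians of 1542 in the clofibrate set, 698 in the DEHP set and 748 in the VPA set. Clofibrate-treated animals at 4 h gave 722 to 820, within the DEHP (443 to 1041) and VPA (467 to 867) vehicle ranges. No vehicle animals were killed at 4 h, and the part of the vehicle levels in the Mvd differences was not tested. Clofibrate was below DEHP for Mvd, at -1.83 ± 0.31 (SE, adjusted p = 8.18e-04), and for Msmo1 rc_AI172293_at, at -1.60 ± 0.34 (SE, adjusted p = 0.0208), 2 of 17 where 0.0888% of all were. Without DEHP 4 h treated replicate 2 or 3 that count was 1. VPA was above clofibrate for Mvd, at 1.66 ± 0.31 (SE, adjusted p = 3.63e-04), and for Fdft1 M95591_g_at, at 1.28 ± 0.39 (SE, adjusted p = 0.0401), 2 of 17 where 3.04% of all were. That count was 4 without clofibrate 48 h vehicle replicate 1 or 168 h vehicle replicate 5. It was 1 without any 1 of 13 other arrays, which were VPA 4 h treated replicates 1 and 2, VPA 48 h vehicle replicates 3 and 5, VPA 168 h vehicle replicate 4, all 3 clofibrate 4 h treated arrays, clofibrate 48 h vehicle replicates 4 and 5 and clofibrate 168 h vehicle replicates 1, 3 and 4.

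No member was called for VPA against DEHP at 4 h, where 4.29% of all probe sets were called. At 24 h no member was called for any pair, where 2.20% were called for clofibrate against DEHP, 4.62% for VPA against DEHP and 8.86% for VPA against clofibrate. A missed threshold does not show that the responses were alike. The interval of 1 SE for Cyp51 AB004096_at at 24 h was -0.77 ± 0.37 for VPA minus DEHP and -0.48 ± 0.37 for VPA minus clofibrate.

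Single treated animals differed in how far the pathway moved. The 4 animals 48 h after VPA had median member differences from the vehicle mean of -1.47, -1.26, -1.22 and -1.85, with 17, 15, 17 and 17 of 17 probe sets below it. The 5 animals 48 h after clofibrate had medians of -1.39, -0.77, -0.67, -0.53 and -1.0, with 11 to 16 of 16 below. The 5 animals 48 h after DEHP lay on both sides, at -0.01, -0.31, 0.27, -0.10 and 0.31. The median of each VPA animal was below that of each DEHP animal at that time.

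**Figure D5:**
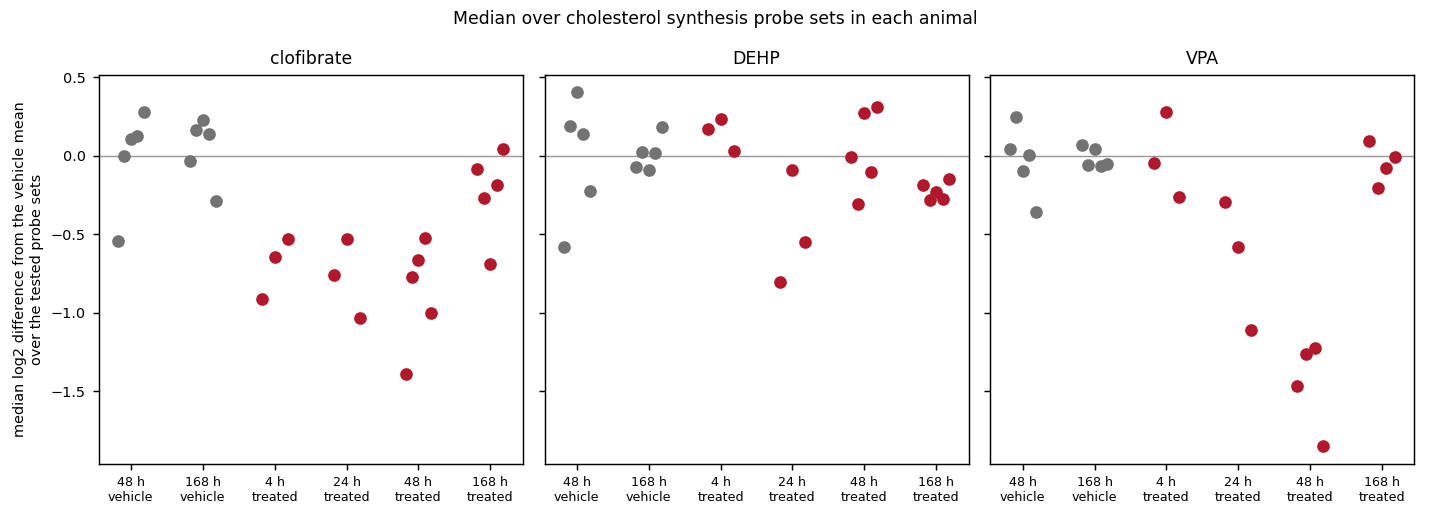
Median log2 difference of the tested cholesterol synthesis probe sets from the vehicle mean (vertical axis) in each treated animal, by compound and time. The 4 VPA animals at 48 h lie between -1.85 and -1.22, and the DEHP animals at 48 h between -0.31 and 0.31.

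A pooled RNA sample of each group was run on 1 array and gave no replicate error. Its signal lay within the range of the group's own animals for 245 of 306 pairs of group and probe set (80.1%). Pooled treated minus pooled vehicle had the same sign as the individual arrays in 58 of 58 called results. The pools held RNA of the same groups, so that this agreement is not independent of the calls. Over all tested members the sign was the same for 17 of 17 at 48 h after VPA. At 168 h, where none was called, it was the same for 10 of 16 after clofibrate and 9 of 17 after VPA. The pooled median was -1.35 at 48 h after VPA, where the animals gave -1.39, and -0.57 at 48 h after clofibrate, where they gave -0.90.

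Other enzymes of the same pathway were taken from a list of 16 genes, of which 10 were on the array. Acat1, Por and Cyb5r3 were counted in this list with the pathway's own enzymes. At 48 h after VPA 8 of its 21 tested probe sets fell and 7 rose, where 18.4% of all probe sets fell and 21.3% rose, with a median difference of -0.08 against -0.01 over all probe sets. Those that fell included Acat2, an early thiolase of the pathway, Fdps, which makes farnesyl diphosphate, Lss, which closes squalene into lanosterol, and Ebp, a sterol isomerase. Lss had log2 differences of -1.04 and -1.40 on 2 probe sets, Fdps of -0.95, -1.02 and -1.56 on 3, and Ebp of -1.15. Those that rose were Acat1, a mitochondrial thiolase, Por, the electron donor of microsomal cytochromes P450, and 1 probe set of Cyb5r3, whose other called probe set fell. After DEHP 1 of 21 fell and 9 rose at 48 h (21.1% and 12.8% of all probe sets), Fdps among them by 0.87, 0.67 and 0.66. The list's median there was 0.59, against -0.11 over all probe sets. At 48 h after clofibrate 3 of 20 fell and 5 rose (12.7% and 7.27% of all probe sets), with a median of 0.27 against -0.13.

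The counts of that list at the other times, lower then higher, were 3 and 3 at 4 h, 5 and 5 at 24 h and 0 and 0 at 168 h of 21 after VPA. Of all probe sets 6.79% and 14.4% were called at 4 h, 15.6% and 20.9% at 24 h and none at 168 h, so that several of the list's counts lie near the background. After clofibrate they were 0 and 3, 2 and 4, and 0 and 0 of 20, where 0.996% and 2.43% of all were called at 4 h, 7.74% and 5.75% at 24 h and none at 168 h. After DEHP they were 0 and 0, 5 and 5, and 0 and 2 of 21, where 1.34% and 1.54% of all were called at 4 h, 17.5% and 15.1% at 24 h and 1.49% and 2.13% at 168 h. These shares are also the background of the counts in the lists that follow.

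Of 13 genes of sterol sensing and uptake 3 were on the array, with 6 probe sets. Insig1, which holds SREBP back when sterols are plentiful, fell at 48 h after VPA by 1.32 and 1.22 on 2 probe sets, and at 24 h after clofibrate by 1.48 and 1.25. Srebf1, which encodes the SREBP form that favours fatty acid genes, fell by 2.21 at 48 h after VPA. Its signals were 545 to 715 in treated and 2484 to 3677 in vehicle animals, and at 24 h it fell by 1.25. After DEHP 1 probe set fell at 48 h, of Scarb1, a receptor for high-density lipoprotein. The median over the 6 at 48 h was -0.71 after VPA, -0.26 after DEHP and 0.21 after clofibrate.

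Genes that use, export or esterify sterols were taken from a list of 13, of which 8 were on the array. Of 10 tested probe sets 7 fell and 1 rose at 48 h after VPA, 6 fell at 24 h and 6 at 48 h after DEHP, and 2 fell at each of these times after clofibrate. The median at 48 h was -0.68 after VPA, -0.39 after DEHP and -0.24 after clofibrate. Cyp7a1, which starts the conversion of cholesterol to bile acids, gave signals of 78.6 to 612 in treated and 2312 to 8929 in vehicle animals at 48 h after VPA, and a log2 difference of -4.26. After DEHP it gave 39.0 to 112 against 1477 to 7524 at 48 h, and a log2 difference of -4.57, while Cyp51 in those livers overlapped vehicle. Both differences are lower bounds on the size, since treated animals lay at the floor of 150. Of 12 tested probe sets for lipogenic enzymes 7 fell and 4 rose at 48 h after VPA. The ones that fell were of Acly, Fasn and Scd, and the ones that rose were of Me1. At 48 h after DEHP 0 of 13 fell and 4, all of Me1, rose, and after clofibrate 1 of 10 fell and 5 rose. The medians at 48 h were -1.67 after VPA, 0.40 after DEHP and 1.32 after clofibrate.

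Targets of PPARalpha, the receptor that fibrates and phthalate metabolites activate, gave a check of exposure. Of 8 probe sets 8, 8, 7 and 0 rose at 4, 24, 48 and 168 h after clofibrate, 7, 8, 8 and 7 after DEHP, and 6, 8, 8 and 0 after VPA. Clock output genes were read because 4 h and 24 h had no vehicle group of their own. At 4 h 4 of 5 probe sets rose after clofibrate, 3 of 7 rose and 1 fell after DEHP, and none of 8 was called after VPA. At 48 h 2 of 5 rose after clofibrate, none of 7 was called after DEHP, and 2 of 8 fell and 1 rose after VPA. Clock counts at 24 h are not given here, and the part of the clock genes in the 4 h and 24 h differences was not tested.

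Across the 76 arrays the members tended to move with each other. The correlation of a member's log2 signal, taken from its compound's vehicle mean, with the mean of the other member genes was 0.92 for Msmo1 rc_AI172293_at and 0.82 for Idi1 AF003835_at. It was lowest for Mvd, at 0.28, and then for Sqle, at 0.51. Sqle followed the others more closely in the clofibrate set (0.79) and the DEHP set (0.70) than in the VPA set (0.31). These points share arrays, groups and vehicle animals, and the values are descriptions.

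Outside the list, the probe sets most like the mean of the 17 members, among 3702 others with 1 gene symbol and a median correlation of 0.04, were those of Cyp4f1 (0.70), Igfals (0.69 and 0.65), Ebp (0.69), Serpina10 (0.68), Cyp2c11 (0.66), Acat2 (0.65) and Sec61b (0.65). Ebp and Acat2 are themselves enzymes of sterol synthesis. The most opposed were Agxt (-0.74), Tmem120a (-0.73 and -0.69) and Vwa8 (-0.69). Within the DEHP set the correlations of these probe sets were weaker. They ran from 0.28 for Serpina10 to 0.57 for Acat2, and from -0.11 for Tmem120a rc_AI011746_at to -0.50 for Vwa8. In the VPA set they were strongest, from 0.70 for Sec61b to 0.89 for Igfals S46785_at, and from -0.81 for Agxt to -0.93 for Tmem120a rc_AI011746_at.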

How the data were processed

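Total RNA of rat liver (10 ug per labelling) was hybridised to Affymetrix rat arrays, and the deposited intensity of each probe set is a MAS 5.0 signal that the authors scaled to 1500, per the labels. The scanner texts' deposited values of other kinds served to check labels (23 of 23 that name a condition matched) and scan days. Genes came from the platform annotation. Members and lists were chosen with earlier results of these data known. Signals under 150 were set to 150 and log2 taken, and probe sets with a group mean of at least 500 were fitted per compound with lmFit and trended eBayes of limma 3.58.1 (R 4.3.3), with Benjamini-Hochberg adjustment. From other lists, called members may be named, those of smallest adjusted p first, and the 8 most and 4 least correlated probe sets were named. The script was tested on simulated data, where 85.5% of 2-fold changes were recovered at 48 h after VPA and 71.4% after clofibrate. Of 1.5-fold changes 59.4% and 18.6% were recovered, and 8.47% and 5.15% of calls were false. At 4 h after clofibrate 62.1% of 2-fold changes were recovered. The changes were put only into probe sets of higher signal than some members, with independent noise. Pooled arrays entered no test. Alternatives covered scaling, floor, filter, blocks, vehicle groups, covariate and arrays left out. Python 3.11.15, numpy 2.4.6, pandas 2.3.3 and matplotlib 3.10.9 were used.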

Additional observations from a re-analysis of the deposited data

Results flagged for a closer look

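An animal's signal that stood far from the other 4 of its group was found in 13 of 204 combinations of probe set and group tested (6.37%), and chance gives about 1 in 20. In the clofibrate set, 168 h vehicle replicate 5 was the lowest of 5 for Fdft1 M95591_g_at (1105), Cyp51 AB004096_at (1697), Cyp51 U17697_s_at (4743) and Msmo1 rc_AI172293_at (4518). In the same set Msmo1 rc_AI172293_at was lowest in 48 h vehicle replicate 1 (4747). Among 168 h treated animals of that set Mvd was lowest in replicate 5 (871), Fdft1 M95591_at lowest in replicate 3 (1604) and Cyp51 U17697_s_at highest in replicate 4 (16412). In the DEHP set Idi1 AF003835_at was lowest in 168 h treated replicate 5 (593). Among its 48 h treated animals replicate 2 was lowest for Fdft1 M95591_g_at (1516) and Msmo1 E12625cds_at (1664), and replicate 5 highest for Cyp51 rc_AI230255_at (1161). In the VPA set Fdft1 rc_H33426_at was highest in 168 h vehicle replicate 3 (2191).

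Responses that differed between times by the limma test of the difference itself (adjusted p under 0.05) were mostly those of VPA. The 48 h minus 168 h difference in log2 response was -1.14, -0.97 and -1.10 for Fdft1 M95591_at, M95591_g_at and rc_H33426_g_at. For Cyp51 it was -2.43, -2.17, -2.05, -1.13 and -1.69 on AB004096_at, rc_AA963449_s_at, rc_AA997614_s_at, rc_AI230255_at and U17697_s_at. It was -1.51 and -1.37 for Msmo1 E12625cds_at and rc_AI172293_at, and -1.72 for Nsdhl. After DEHP it was -0.59 for Nsdhl.

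Responses that differed between compounds by the same kind of test lay at 4 and 48 h. At 4 h clofibrate minus DEHP was -1.83 for Mvd and -1.60 for Msmo1 rc_AI172293_at, and VPA minus clofibrate was 1.66 for Mvd and 1.28 for Fdft1 M95591_g_at. At 48 h clofibrate minus DEHP was -1.21 for Mvd, -1.43 for Fdft1 M95591_g_at and -1.60 for Cyp51 rc_AA963449_s_at. VPA minus clofibrate at 48 h was -1.48 for Cyp51 AB004096_at, -2.15 for rc_AA997614_s_at and -1.55 for Nsdhl.

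VPA minus DEHP at 48 h was -1.87 for Idi1 AF003835_at, -1.35 and -1.48 for Fdft1 M95591_at and M95591_g_at, -1.72 for Msmo1 rc_AI172293_at and -1.24 for Nsdhl. For Cyp51 it was -2.25 on AB004096_at, -1.98 on rc_AA963449_s_at, -1.99 on rc_AA997614_s_at, -1.08 on rc_AI230255_at and -1.86 on U17697_s_at.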

How the results depend on the processing

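The counts of members called are compared here, in the order of the report. For the settings only the larger shifts are listed, so that a count that is not named may still have moved. With a floor of 50, 2 of 90 called results no longer passed. At 48 h after VPA 14 were called under every setting tried and without each array in turn. No called member result changed sign under any of them. Median centring gave 1 at 24 h and 3 at 48 h after clofibrate, 4 at 24 h (1 of them higher) and 2 at 48 h (1 higher) after DEHP, 2 for the DEHP 48 h minus 168 h response (both higher, where the reported 1 was lower) and 1 for VPA minus clofibrate at 4 h. Quantile normalization gave 3 at 24 h after clofibrate, 0 for the DEHP 48 h minus 168 h response, and 1 each for VPA minus clofibrate at 4 and 24 h. Without a filter on low signals, where more probe sets are tested, there were 2, 2 and 5 at 4, 24 and 48 h after clofibrate, 0, 3 and 0 at 4, 24 and 168 h after DEHP, 0 for the DEHP 48 h minus 168 h response, and 1 each for VPA minus DEHP and VPA minus clofibrate at 4 h. Scan day as a block gave 0 at 4 h and 168 h after DEHP, 3 at 24 h after VPA, and 1 and 0 for clofibrate minus DEHP at 4 and 48 h. The 3'/5' ratio as a covariate gave 11 at 24 h after clofibrate, 7 at 24 h after VPA (1 higher), 1 for the clofibrate 48 h minus 168 h response, 1 and 6 for clofibrate minus DEHP at 24 and 48 h, and 1 and 2 (1 each way) for VPA minus clofibrate at 4 and 24 h. Without the 4 arrays given to 1 decimal there were 2, 2 and 3 at 4, 24 and 48 h after clofibrate, 1 each for clofibrate minus DEHP at 24 and 48 h, and 1 and 2 (1 each way) for VPA minus clofibrate at 4 and 24 h. The fit of all 76 arrays gave 1 at 24 h and 0 at 168 h after DEHP, 6 at 24 h after VPA, 2 for the clofibrate and 0 for the DEHP 48 h minus 168 h response, and the fit of the 2 compounds compared gave 1 each for VPA minus DEHP and VPA minus clofibrate at 4 h. Against the 48 h vehicle group alone there were 2, 5 (1 higher) and 6 at 24 h after clofibrate, DEHP and VPA, and against the 168 h group alone 1 at 4 h after clofibrate and 0 at 4 h after DEHP. The causes of these shifts were not tested. Leaving out 1 array gave totals over both directions of 1 to 4, 2 to 8, 5 to 9 and 0 to 0 at 4, 24, 48 and 168 h after clofibrate, 0 to 2, 2 to 9, 1 to 3 and 0 to 1 after DEHP, and 1 to 3, 5 to 14, 14 to 14 and 0 to 0 after VPA. It gave 0 to 4, 0 to 4 and 10 to 13 for the 48 h minus 168 h responses of clofibrate, DEHP and VPA. For clofibrate minus DEHP it gave 1 to 2, 0 to 1 and 0 to 8 at 4, 24 and 48 h, for VPA minus DEHP 0 to 0, 0 to 0 and 9 to 11, and for VPA minus clofibrate 1 to 4, 0 to 2 and 3 to 6. For the clofibrate 48 h minus 168 h response the arrays that moved the count were 48 h vehicle replicate 1 (4) and 48 h treated replicates 4 and 5 and 168 h treated replicate 3 (1 each).

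With the replicate block there were 2 and 3 at 4 and 24 h after clofibrate, 0 and 4 at 4 and 24 h after DEHP, 1 for the clofibrate 48 h minus 168 h response and 1 for VPA minus clofibrate at 4 h. The labels do not say whether equal replicate numbers mark paired samples, and the numbers were treated as names only. Of 28 same-numbered pairs, 6 had deviations correlated above 0.1 (range -0.46 to 0.55) and 7 treated arrays correlated best with their own number. With so few animals per group these correlations cannot decide whether a litter or day was shared. Over all probe sets the calls ranged beyond 1.5 times the reported count at 4 h (78 to 295 against 124), 24 h (up to 942 against 488) and 48 h (up to 1232 against 722) after clofibrate, at 4 h after DEHP (54 to 149 against 118) and at 4 h after VPA (515 to 954 against 906). The number of arrays limits every value, and 3 treated animals at 4 and 24 h leave the early counts least secure.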
